A study of Homo sapiens with 6 samples.

Results

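Hepatocytes release most of the proteins of blood plasma. The mRNAs of 9 proteins tied to this role were followed in Hep G2 cells: albumin (ALB), alpha-fetoprotein (AFP), transthyretin (TTR), retinol-binding protein 4 (RBP4), glypican-3 (GPC3), fetuin-A (AHSG), alpha-1-antitrypsin (SERPINA1), alpha-1-antichymotrypsin (SERPINA3) and the vitamin D-binding protein (GC). They were picked by gene name from a table of 23524 genes, and all 9 were listed there. Hep G2 is a human liver tumor line that keeps many hepatocyte genes active. The control cells carried an empty lentiviral vector, and the other group, called EFTUD2 below, was infected with a lentivirus that carries the EFTUD2 gene, which encodes a GTPase of the spliceosome. Both were stable lines kept after puromycin selection, with 3 RNA-Seq libraries each, and both still had the EFTUD2 gene of the cells themselves. The promoter of the vector was not given in the sources used here. The labels number the libraries but do not tie them to separate cultures, so p-values measure the spread between these libraries, which may be technical.

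Albumin is the main carrier and osmotic protein of adult plasma, and AFP is its fetal relative, which falls silent after birth and returns in many liver tumors. GC, which carries vitamin D, belongs to the same gene family. TTR carries thyroid hormone and holds RBP4, the carrier of retinol, in the circulation. AHSG binds calcium phosphate, SERPINA1 inhibits neutrophil elastase and SERPINA3 inhibits cathepsin G, and GPC3 is a cell-surface proteoglycan of fetal liver that is used as a marker of liver cancer. GPC3 is held at the membrane by a lipid anchor, whereas the others are secreted.

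Several of these genes are neighbours in the genome. ALB lies on chromosome 4 from 73404287 to 73421482 and AFP from 73436221 to 73456174 (RefSeq, GRCh38.p14), with a gap of 14.7 kb and 0 protein-coding genes between them. GC lies 1598.8 kb away on the same chromosome, from 71741693 to 71805520. SERPINA1 (chromosome 14, 94376747 to 94390635) and SERPINA3 (94612391 to 94624053) belong to 1 serpin cluster, with 5 other serpin genes between them over 221.8 kb. AHSG is on chromosome 3 from 186613060 to 186621318, RBP4 on chromosome 10 from 93591694 to 93601744, TTR on chromosome 18 from 31591877 to 31598821, and GPC3 on chromosome X from 133535745 to 133985594.

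The 150 bases before the RefSeq start of 4 genes are shown, those of the neighbours ALB and AFP and those of both serpins, because the levels of these 4 genes carry the results below. Each is written 5′ to 3′ on the strand of the gene (GRCh38.p14), and for SERPINA1 the window of the more downstream of its listed starts is shown. Capitals mark the letters GTTAAT, the forkhead motif TGTTTGC and the TATA box TATAAA.
ALB, chr4:73404137-73404286, plus strand: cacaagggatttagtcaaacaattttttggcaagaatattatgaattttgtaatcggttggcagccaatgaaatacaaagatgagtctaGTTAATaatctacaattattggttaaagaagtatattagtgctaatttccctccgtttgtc
AFP, chr4:73436071-73436220, plus strand: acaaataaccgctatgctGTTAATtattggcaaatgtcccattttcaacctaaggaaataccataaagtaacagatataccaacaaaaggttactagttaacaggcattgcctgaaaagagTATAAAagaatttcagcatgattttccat
SERPINA1, chr14:94388603-94388752, minus strand: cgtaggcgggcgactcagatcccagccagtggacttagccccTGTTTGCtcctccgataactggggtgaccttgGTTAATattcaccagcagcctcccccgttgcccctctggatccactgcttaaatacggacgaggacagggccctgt
SERPINA3, chr14:94612241-94612390, plus strand: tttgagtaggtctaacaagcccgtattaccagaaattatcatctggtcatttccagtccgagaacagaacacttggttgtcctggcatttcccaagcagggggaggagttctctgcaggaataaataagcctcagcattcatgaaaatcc

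GTTAAT began 61 bases before the start in ALB, 132 in AFP and 76 in SERPINA1. In the 250 bases before a start, on both strands, it was found in 3 of the 9 windows of 6 of these genes (all but TTR, GPC3 and GC) and in 6.23% of all 35116 windows of the RefSeq table. TGTTTGC was found in AHSG and SERPINA1 and in 3.23% of all windows, and TATAAA in AFP and RBP4 and in 10.7% of all. TGNACTTTG, which HNF4 binds, was found in AHSG and in 0.94% of all, and the STAT letters TTCNNNGAA in RBP4 and in 6.57% of all. TTNNGNAA, a loose C/EBP pattern, was found in 7 of the 9 windows and in 33.2% of all. It matched in AFP, AHSG, ALB, RBP4, SERPINA1 and SERPINA3 and is left unmarked. TGTTTAC (2.98% of all windows) and TTGCNNCAA (1.62%) had 0 matches in these 9 windows. A match says only that the letters are there.

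The deposited values are FPKM, a fragment count scaled for transcript length and depth, and their sum lay between 404342 and 434542 in the 6 libraries. The reads behind each value are unknown. Values of a gene are given in the order of replicates 1, 2 and 3 of each group. EFTUD2 itself measured 41.1, 54.4 and 46.3 FPKM in controls against 106.6, 102.9 and 109.5 FPKM in EFTUD2 libraries, without overlap (log2 fold change 1.16 with a standard error of 0.12 and an adjusted p of 0.13 by limma). Groups were compared as log2(FPKM + 1) with limma over the 17222 genes that averaged 0.1 FPKM or more. Of the 9 genes, 8 passed this filter and GC did not. Of all genes tested, 0% were called higher and 0% lower at an adjusted p under 0.05. Before adjustment, 2118 genes had a limma p under 0.05, and 37.3% of all genes tested had a positive log2 fold change, a share that depends on the scaling, since 8662 of 17222 were positive with median-of-ratios factors. EFTUD2 replicate 3 stood apart from the other libraries in many genes of this set, as described below, and results that rest on it are given without it too.

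Of the 9 genes, 6 were among the 100 with the highest control means. By mean FPKM in the controls, ALB was at rank 5 of all genes, SERPINA1 at 6, AFP at 12, AHSG at 22, SERPINA3 at 70 and GPC3 at 89, while RBP4 was at rank 129 and TTR at rank 2592. The 9 genes together made up 2.79%, 1.61% and 2.30% of the summed FPKM in control replicates 1 to 3 and 2.56%, 2.42% and 3.71% in EFTUD2 replicates 1 to 3. The groups overlapped (exact permutation test, two-sided p = 0.4), and EFTUD2 replicate 3 was the highest library. GC was listed at 0.03, 0.03 and 0 FPKM in controls against 0, 0.08 and 0.06 FPKM in EFTUD2 libraries, so this member of the albumin family was at or near 0 in every library. In bulk RNA, fewer cells of a kind and less RNA in each cell cannot be told apart.

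**Figure D1:**
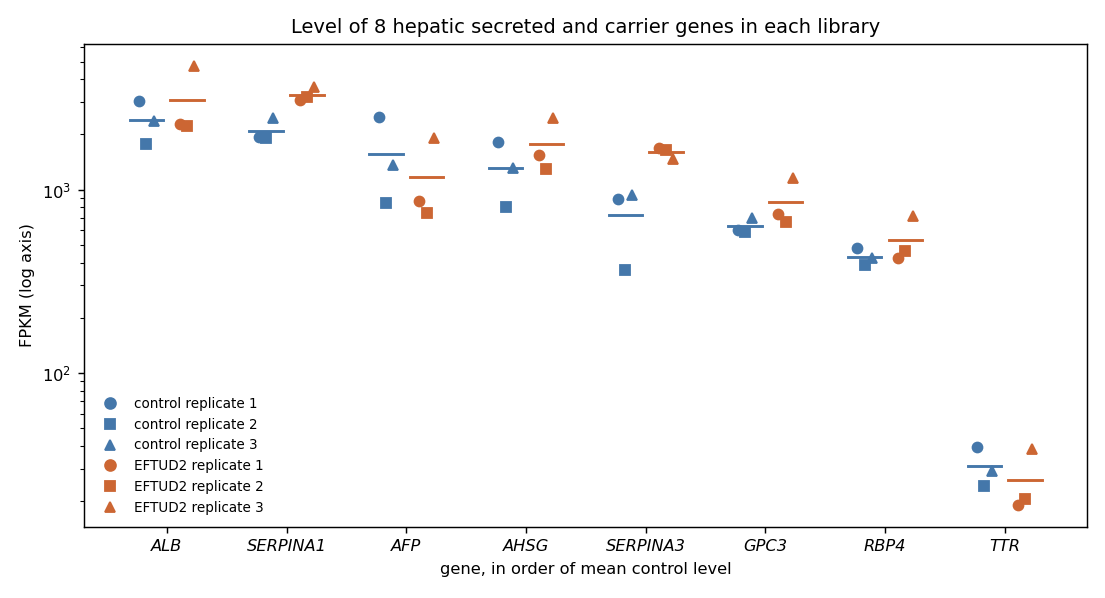
FPKM on a log axis of the 8 genes tested, with 1 point for each library (3 control, 3 EFTUD2) and a bar at each group mean. The EFTUD2 libraries lie above the controls for SERPINA1 and SERPINA3, and for the other genes the groups overlap, with EFTUD2 replicate 3 as the highest EFTUD2 library.

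Both serpins stood higher in EFTUD2-overexpressing cells, with mean FPKM 2.21 times that of the controls for SERPINA3 and 1.58 times for SERPINA1. SERPINA3 (Entrez gene 12) measured 885.9, 366.5 and 929.8 FPKM in controls against 1693, 1653 and 1469 FPKM in EFTUD2 libraries. Each EFTUD2 library was above each control, and control replicate 2 was far below the other controls. The log2 fold change was 1.25 (standard error 0.36, 95% confidence interval 0.40 to 2.11), with an adjusted p of 0.40 from limma, which does not pass the threshold. Leaving out control replicate 2, the fold change was 0.82 on the log2 scale.

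SERPINA1 (Entrez gene 5265) measured 1937, 1901 and 2448 FPKM in controls against 3075, 3190 and 3642 FPKM in EFTUD2 libraries. Again the groups did not overlap, and the spread within each was small, with SDs of 306 and 299.9 FPKM around means of 2096 and 3302 FPKM (n = 3 each). The log2 fold change was 0.66 (standard error 0.18, 95% confidence interval 0.23 to 1.09), with an adjusted p of 0.40 from limma. For both genes the exact two-sided permutation p was 0.1, the smallest that 3 libraries against 3 can give. With quantile normalization the log2 fold change was 0.31 for SERPINA1 and 1.02 for SERPINA3, and both stayed positive under each alternative tried. Of the 8 genes tested, 2 thus had groups that did not overlap with the EFTUD2 libraries higher, where this held for 7.92% of all genes tested, and 0 had such groups with the EFTUD2 libraries lower, where it held for 19.4% of all genes.

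The other secreted carriers overlapped between the groups. ALB (Entrez gene 213) measured 3027, 1773 and 2373 FPKM in controls against 2287, 2215 and 4732 FPKM in EFTUD2 libraries. EFTUD2 replicates 1 and 2 lay within the range of the controls, and replicate 3 was the highest of all libraries. The log2 fold change was 0.30 (standard error 0.35, 95% confidence interval -0.54 to 1.15, adjusted p = 0.68 from limma), and without EFTUD2 replicate 3 it was -0.05, so this library decided its sign.

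AFP (Entrez gene 174) measured 2499, 845.7 and 1357 FPKM in controls against 869.8, 744.9 and 1918 FPKM in EFTUD2 libraries. Control replicate 1 and EFTUD2 replicate 3 were high in their groups, and the mean was 0.75 times that of the controls. Its log2 fold change was -0.40 (standard error 0.49, 95% confidence interval -1.57 to 0.76, adjusted p = 0.69 from limma). Without control replicate 1 it was 0.01, and without EFTUD2 replicate 3 it was -0.82 (adjusted p = 0.40 from limma, as fitted on 5 libraries).

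AHSG (Entrez gene 197) measured 1827, 807.8 and 1320 FPKM in controls against 1549, 1300 and 2466 FPKM in EFTUD2 libraries (log2 fold change 0.45, standard error of 0.36 and adjusted p of 0.55 by limma). Its pattern was close to that of ALB, with control replicate 2 lowest and EFTUD2 replicate 3 highest. The log2 fold change was 0.14 without control replicate 2 and 0.18 without EFTUD2 replicate 3.

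The retinol and thyroid hormone carriers stood at very different levels although their proteins circulate as 1 complex. RBP4 (Entrez gene 5950) measured 482.5, 388.0 and 423.2 FPKM in controls against 421.4, 464.6 and 716.0 FPKM in EFTUD2 libraries. TTR (Entrez gene 7276) measured 39.4, 24.3 and 29.2 FPKM in controls against 19.1, 20.5 and 38.7 FPKM in EFTUD2 libraries. RefSeq lists another gene, LOC124904277, that overlaps TTR, and its effect on the TTR values was not tested. For RBP4, EFTUD2 replicate 3 was the only library above every control, and for TTR, EFTUD2 replicates 1 and 2 were below every control. The log2 fold changes were 0.27 for RBP4 (standard error of 0.22 and adjusted p of 0.55 by limma) and -0.28 for TTR (standard error of 0.30 and adjusted p of 0.64 by limma). Without EFTUD2 replicate 3 they were 0.04 and -0.59.

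GPC3 (Entrez gene 2719), the surface proteoglycan, measured 600.8, 587.9 and 702.4 FPKM in controls against 736.6, 666.4 and 1155 FPKM in EFTUD2 libraries. Only EFTUD2 replicate 2 reached into the range of the controls. The log2 fold change was 0.40 (standard error 0.23, 95% confidence interval -0.14 to 0.94, adjusted p = 0.45 from limma), and it was 0.16 without EFTUD2 replicate 3. RefSeq lists an antisense gene, GPC3-AS1, within the span of GPC3, and whether the counting used strand is not given in the sources used here. In all, 6 of the 8 genes had a positive and 2 a negative log2 fold change, with a median of 0.35, against -0.07 over all genes tested. The median was 0.10, with 5 of 8 positive, without EFTUD2 replicate 3, 0.17 without control replicate 2 and 0.18 with quantile normalization. With array weights, whose estimation gave a warning, it was 0.06. The confidence intervals are not adjusted for the number of genes tested. For the 6 genes other than the serpins, they include 0 and reach changes of either sign, so a difference was not detectable with these 3 libraries a group. The intervals of both serpins lie above 0, but neither serpin passed the adjusted threshold. Before adjustment, 2118 of all genes tested had a limma p under 0.05.

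**Figure D2:**
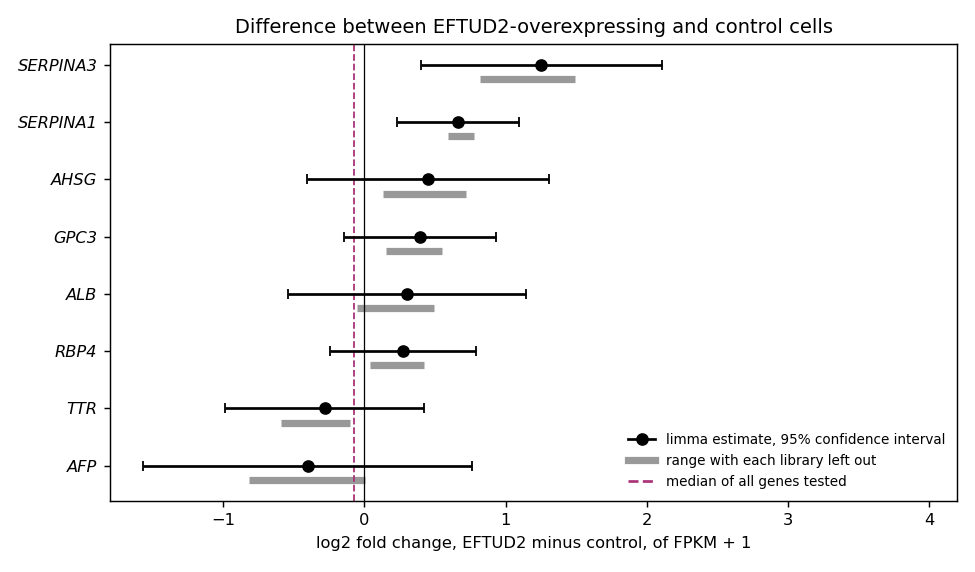
Log2 fold change of each gene, EFTUD2 minus control, with its 95% confidence interval from limma (black), the range when each library is left out in turn (grey) and the median of all 17222 genes tested (dashed line). The intervals are not adjusted for the number of genes tested. Those of SERPINA1 and SERPINA3 lie above 0, though neither gene passed the adjusted threshold, and the grey ranges of ALB and AFP reach across 0.

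The ratio of 2 genes in the same library is not altered by a common factor for that library, and 4 such ratios were compared. The ratio of the fetal to the adult albumin, AFP to ALB, was 0.83, 0.48 and 0.57 in control replicates 1 to 3 and 0.38, 0.34 and 0.41 in EFTUD2 replicates 1 to 3. Each EFTUD2 library was thus below each control, although neither gene alone separated the groups. On the log2 scale the mean ratio was lower by 0.71 in the EFTUD2 libraries, with SDs of 0.40 in the controls and 0.14 in the EFTUD2 libraries (log2 difference -0.71, exact permutation test, two-sided p = 0.1, adjusted p = 0.2 over the 4 ratios).

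TTR to RBP4 showed the same order. The ratio was 0.082, 0.062 and 0.069 in the controls and 0.045, 0.044 and 0.054 in the EFTUD2 libraries, again without overlap (log2 difference -0.57, exact permutation test, two-sided p = 0.1, adjusted p = 0.2). EFTUD2 replicate 3, the highest EFTUD2 library for each of these 4 genes, was below every control in both ratios. Without it, the differences were -0.77 for AFP to ALB and -0.66 for TTR to RBP4. They were smallest, at -0.49 and -0.46, without control replicate 1.

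SERPINA3 to SERPINA1 was 0.46, 0.19 and 0.38 in the controls and 0.55, 0.52 and 0.40 in the EFTUD2 libraries, and GPC3 to AFP was 0.24, 0.70 and 0.52 against 0.85, 0.89 and 0.60. The groups overlapped in both ratios (exact permutation tests, two-sided p = 0.2 each, adjusted p = 0.2). None of the 4 ratios passed the threshold, which 3 libraries against 3 cannot reach. How often ratios of other gene pairs separate the groups was not examined.

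**Figure D3:**
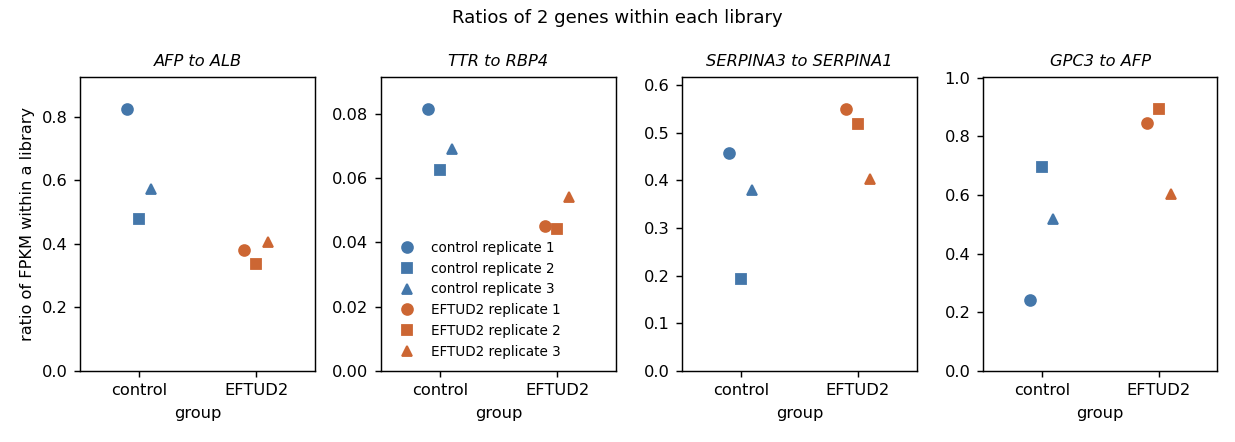
Ratio of the FPKM of 2 genes within each library, with 1 point for each of 3 control and 3 EFTUD2 libraries and every axis starting at 0. The EFTUD2 libraries lie below the controls for AFP to ALB (0.34 to 0.41 against 0.48 to 0.83) and for TTR to RBP4, and the groups overlap in the other 2 panels.

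Within the groups, the libraries differed in a graded way over these genes. EFTUD2 replicate 3 was 2.38 times the mean of EFTUD2 replicates 1 and 2 for AFP, 2.10 times for ALB and 1.95 times for TTR. It was 1.73 times for AHSG, 1.65 times for GPC3 and 1.62 times for RBP4, but only 1.16 times for SERPINA1 and 0.88 times for SERPINA3. Replicate 3 was the highest EFTUD2 library for 7 of the 8 genes, against 31.3% of all genes tested, and it was the lowest for 57.8% of all genes. Control replicate 2 was the lowest control for all 8 of them, against 37.1% of all genes tested. Neither trait was particular to these 8 genes. Of the lists described below, EFTUD2 replicate 3 was the highest EFTUD2 library for 15 of 20 other hepatocyte genes and 12 of 19 other carriers. Control replicate 2 was the lowest control for 15 of the 20 and 13 of the 19. Control replicate 1 was 2.27 times the mean of the other controls for AFP and 1.72 times for AHSG, and 0.89 times for SERPINA1.

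**Figure D4:**
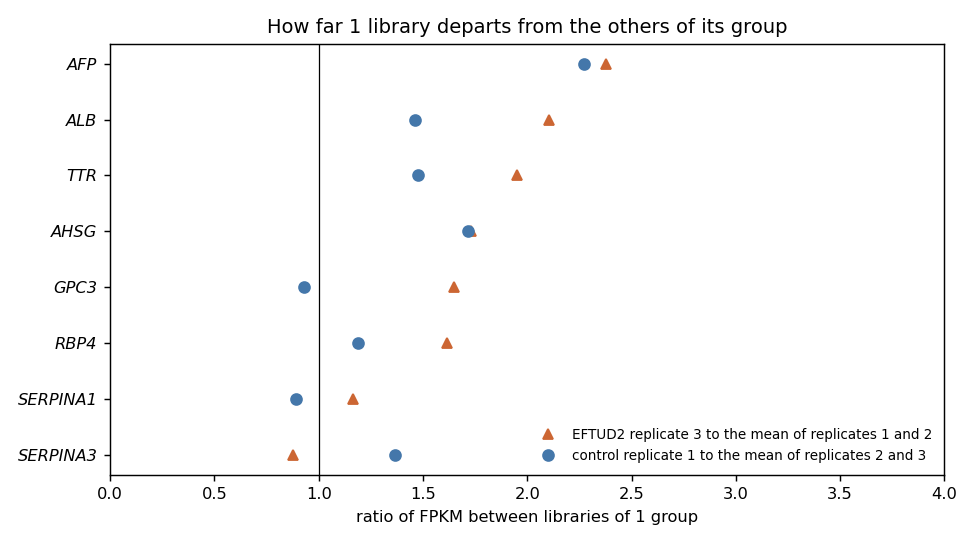
Ratio of EFTUD2 replicate 3 to the mean of EFTUD2 replicates 1 and 2 (triangles) and of control replicate 1 to the mean of control replicates 2 and 3 (circles), for the FPKM of each gene; the line marks a ratio of 1. EFTUD2 replicate 3 is above the other EFTUD2 libraries for every gene but SERPINA3, most for AFP at 2.38 times.

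Across the 6 libraries, the log2 values of these genes followed each other to different degrees. Pearson's r was 0.96 between ALB and RBP4, 0.93 between ALB and AHSG and 0.95 between AFP and TTR. It was 0.85 between SERPINA1 and SERPINA3, and -0.16 between AFP and SERPINA1. These are descriptions over 6 libraries of 2 groups that share their scaling. Among the 3594 genes that averaged 10 FPKM or more and had a log2 SD of 0.2 or more, those most like ALB were PHF1 (r = 0.998), HDAC5 (0.996) and the cortisol-binding serpin SERPINA6 (0.995), and those most like AFP were TRPV2 (0.991), RETSAT (0.989) and CLDN1 (0.986). In this order of likeness to ALB, its neighbour AFP was at position 529 (r = 0.75). SERPINA6 measured 64.8, 44.3 and 55.0 FPKM in controls against 49.8, 51.6 and 90.0 FPKM in EFTUD2 libraries, so it shared with ALB the low control replicate 2 and the high EFTUD2 replicate 3.

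Related genes were taken from lists of families and pathways, in each of which 0 genes were called. Of 19 other carrier proteins, 17 had a positive log2 fold change, the median was 0.40, 8 had EFTUD2 libraries above every control (7.92% of all genes) and 0 had them below (19.4% of all genes). The hemoglobin-binding protein haptoglobin (HP) had the largest difference, with 87.8, 111.2 and 182.3 FPKM in the controls and 447.7, 689.7 and 301.7 FPKM in the EFTUD2 libraries (log2 fold change 1.89, standard error of 0.37 and adjusted p of 0.28 by limma). For HP, unlike ALB, EFTUD2 replicate 3 was the lowest of its group. Transferrin (TF), the iron carrier and most abundant gene of the list, overlapped between groups at 537.6 to 761.4 and 753.0 to 1115 FPKM, while APOH did not overlap, at 327.5 to 489.2 and 626.4 to 750.3 FPKM. A1BG overlapped between groups and measured 4.38 to 13.5 FPKM in controls against 13.5 to 29.1 FPKM in EFTUD2 libraries.

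A list of 20 other hepatocyte genes, 3 of which are also in the carrier list, had 18 positive log2 fold changes, a median of 0.37 (0.24 without EFTUD2 replicate 3) and 7 genes with EFTUD2 libraries above every control, beside 7.92% of all genes. Complement C3 measured 460.4, 371.1 and 562.7 FPKM in controls against 825.2, 781.5 and 1045 FPKM in EFTUD2 libraries (log2 fold change 0.93, standard error of 0.20 and adjusted p of 0.32 by limma). CPS1, the first enzyme of the urea cycle, measured 5.64 to 6.91 FPKM in controls against 13.5, 23.5 and 7.22 FPKM in EFTUD2 libraries. The most abundant genes of the list, APOA2 and APOA1 of high-density lipoprotein, had log2 fold changes of -0.05 and 0.09. Defining hepatocyte mRNAs were thus present in both groups.

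Among family members, 7 of 9 tested clade A serpins had a positive log2 fold change, and their median was 0.18. The median was 0.04 without control replicate 2 and 0.10 without EFTUD2 replicate 3. It was 0.31 to 0.33 without control replicate 1 or EFTUD2 replicate 1 or 2. With array weights it was -0.002, with 4 of 9 positive. SERPINA11, next in the cluster, measured 44.1, 10.7 and 30.1 FPKM in controls against 41.0, 35.3 and 91.4 FPKM in EFTUD2 libraries, with overlap. The thyroxine-binding serpin SERPINA7, chosen after its values were seen, did not overlap, at 82.2 to 127.6 and 144.5 to 178.9 FPKM (log2 fold change 0.56, adjusted p = 0.40 from limma). Of the albumin family, AFM was also near 0, with at most 0.16 FPKM in any library (1 of 3 tested genes of this family had a positive log2 fold change). All 3 tested genes of the fetuin and kininogen group had a positive log2 fold change, with a median of 0.51 that was 0.20 without EFTUD2 replicate 3. KNG1, which encodes kininogen, measured 0.56 to 0.79 FPKM in controls against 1.58, 2.79 and 9.76 FPKM in EFTUD2 libraries, and FETUB, 14.6 kb from AHSG, was at 0.70 to 1.27 and 1.31 to 3.47 FPKM. Of 5 tested glypicans, 4 had a positive log2 fold change, with a median of 0.14. With each library left out, the median lay between 0.07 without EFTUD2 replicate 3 and 0.26 without EFTUD2 replicate 1. GPC5 averaged 0.03 FPKM in controls and 0.27 FPKM in EFTUD2 libraries, so it passed the filter only through the EFTUD2 group. Of the 3 glypicans that averaged 1 FPKM or more, 2 were positive, with a median of 0.08. GPC6 was next to GPC3 in level, with means of 10.5 and 11.3 FPKM, and GPC5 reached 0.50 FPKM at most, in EFTUD2 replicate 2.

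Of 17 tested transcription factors known to act on the ALB and AFP genes, 4 had a positive and 13 a negative log2 fold change, with a median of -0.18 beside -0.07 over all genes. Without EFTUD2 replicate 3 the median was -0.04, the same as over all genes, with 6 positive, without EFTUD2 replicate 1 it was -0.29, and with median-of-ratios factors it was -0.08. HNF4A measured 65.4, 79.9 and 75.6 FPKM in controls against 72.5, 70.4 and 47.3 FPKM in EFTUD2 libraries, and CEBPA 33.4, 58.5 and 43.3 FPKM against 45.2, 56.4 and 16.3 FPKM. EFTUD2 replicate 3, the library with the most ALB, was the one with the least of these 2 factors, and control replicate 1 was the control with the most ALB and the least of both. The EFTUD2 libraries lay below every control for NR5A2 and for ZBTB20, a repressor of AFP (both chosen after their values were seen), as they did for 19.4% of all genes. They lay above every control for CEBPB (35.7, 28.1 and 34.4 against 41.5, 48.5 and 57.3 FPKM, log2 fold change 0.57, adjusted p = 0.40 from limma) and for the bile acid receptor NR1H4 (log2 fold change 0.55, adjusted p = 0.40 from limma). In all, they lay above every control for 2 of the 17 factors (7.92% of all genes) and below for 3 (19.4% of all genes).

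Genes that handle the cargo of these carriers, and those that fold and export secreted proteins, centered closer to 0. Of 16 tested receptors and handling genes, 10 had a positive log2 fold change, with a median of 0.11. With each library left out, the median lay between 0.05 without control replicate 1 and 0.20 without EFTUD2 replicate 1. DIO2, chosen after its values were seen, was at 0 to 0.01 FPKM in controls and passed the filter only through the EFTUD2 group. Of the 12 genes that averaged 1 FPKM or more, 6 were positive, with a median of -0.04. The EFTUD2 libraries were above every control for 2 of the 16, VDR and LRP1 (7.92% of all genes), and below for 2, CRABP2 and RDH10 (19.4% of all genes), of which all but CRABP2 were chosen after their values were seen. CRABP2, which binds retinoic acid in cells, was at 1.19 to 2.15 and 0.40 to 1.05 FPKM. FCGRT, the receptor that recycles albumin, was at 85.3 to 98.4 and 91.3 to 113.6 FPKM. Of 20 folding and export genes, 12 were positive with a median of 0.02, and under the other scalings between 9 and 19 were positive and the median lay between -0.03 and 0.13, so their direction depends on the scaling. On the deposited scaling, the EFTUD2 libraries were above every control for 3 of the 20 (7.92% of all genes) and below for 0 (19.4% of all genes). Of the 3, PREB was chosen after its values were seen. The others were P4HB and the chaperone HSP90B1, at 587.9 to 684.0 and 687.6 to 744.8 FPKM for P4HB and at 215.0 to 305.0 and 331.1 to 365.9 FPKM for HSP90B1.

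**Figure D5:**
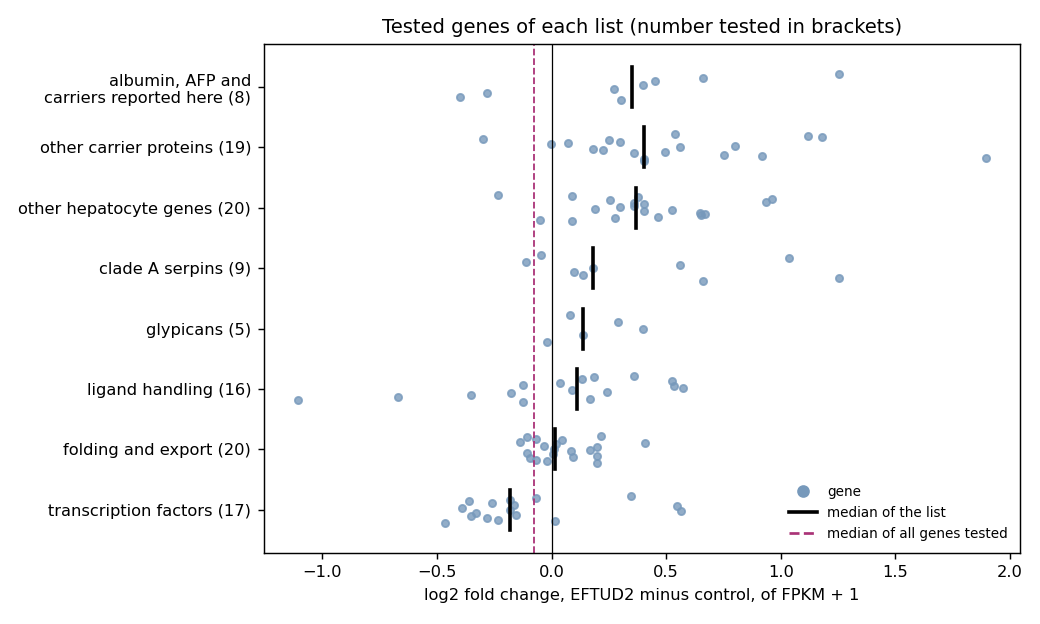
Log2 fold change, EFTUD2 minus control, of each tested gene (points) in 8 lists, with the median of each list (bar) and of all genes tested (dashed line). The carriers reported here, the other carriers and the other hepatocyte genes have medians of 0.35 to 0.40 and the transcription factors of -0.18, which without EFTUD2 replicate 3 are 0.10, 0.45, 0.24 and -0.04; no gene shown passed the adjusted threshold.

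Markers of other cells were set beside these values. A group of 8 genes had been singled out by earlier work on these libraries after seeing their values (VIM, CD44, KRT17, KRT7, LDHB, IL6, IGFBP3 and SOCS3). They summed to 3.83 to 5.38 FPKM in the controls and to 157.7, 337.7 and 37.1 FPKM in EFTUD2 replicates 1 to 3. Of the 8, 7 had EFTUD2 libraries above every control, which only describes genes chosen for their values. VIM, CD44 and IL6 averaged under 0.1 FPKM in the controls and passed the filter only through the EFTUD2 group. Over all genes tested, EFTUD2 libraries were above every control for 7.92% and below for 19.4%, against which the marker counts that follow can be read. The sum of the 8 genes was highest in EFTUD2 replicate 2, as was HP. SERPINA1 and ALB were highest in EFTUD2 replicate 3 and SERPINA3 in EFTUD2 replicate 1. The part of this sum in the results, and that of the markers that follow, was not tested. The 8 fibroblast markers summed to 0.53 to 1.65 FPKM in the controls and 2.35 to 4.91 FPKM in the EFTUD2 libraries. COL1A2 was at 0 in every library, and COL3A1 was the only 1 of 4 tested that did not overlap. COL3A1, at 0 FPKM in the controls, passed the filter only through the EFTUD2 group, as did LUM (chosen after its values were seen). The 6 endothelial markers summed to 1.09 to 1.53 and 1.29 to 1.62 FPKM, with 2 of 3 tested higher and 1 lower without overlap. Of the 2, CDH5, chosen after its values were seen, averaged 0.07 FPKM in controls and passed the filter only through the EFTUD2 group. Of the 7 macrophage markers, TYROBP was at 0 and PTPRC at no more than 0.02 FPKM in every library, and the sum of 775 to 2279 FPKM was almost wholly LYZ, which measured 2261, 743.6 and 1142 FPKM in controls against 1085, 849.4 and 1722 FPKM in EFTUD2 libraries; 1 of 3 tested, CD14, did not overlap. Of the 7 bile duct markers, 5 were tested and 3 had a positive log2 fold change. KRT19 had EFTUD2 libraries below every control (102.5 to 163.0 against 314.1 to 372.7 FPKM) and SPP1 above (521.4 to 1210 against 173.1 to 455.1 FPKM), and CFTR was at 0.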

How the data were processed

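Poly-A RNA of 3 control and 3 EFTUD2 libraries was sequenced on the BGISEQ-500 platform, and groups and numbers came from the sample titles. The authors deposited FPKM values per gene and library, rounded to 2 decimals. The submitters' processing notes name HISAT2, Bowtie2, RSEM, DESeq2 and hg38, without versions or roles, and the annotation is not given in the sources used here. Without read counts, the depth and its precision are unknown, and no count test was run.

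Log2(FPKM + 1) was compared for the 17222 genes that averaged 0.1 FPKM or more, with limma 3.58.1 (lmFit, eBayes with trend) in R 4.3.3, with Benjamini-Hochberg adjustment over all of them and a threshold of 0.05. Single values and ratios were compared by exact two-sided permutation tests in Python 3.11.15 with scipy 1.17.1, and figures drawn with matplotlib 3.10.9. Replicate numbers are shared between the groups, and the fit with them as a block is an alternative, as are other pseudocounts, filters, scalings and weights and each library left out.

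The 9 genes and the lists (albumin family, clade A serpins, fetuins and kininogen, glypicans, other carriers, ligand handling, regulators, folding and export, other hepatocyte genes, and markers of fibroblasts, endothelium, macrophages and bile duct) were chosen with earlier results of these data known. Named are the 9 genes, EFTUD2, up to 2 genes of each list with the highest level and up to 2 with the largest change, the genes most like ALB and AFP, and the genes said to be chosen after their values were seen. The RefSeq gene table held 18449 of the 18762 listed Entrez numbers. RefSeq windows and positions are those of GRCh38.p14, and hg38 is the same primary assembly. Protein sequences were not used here. A few gene-level values are left out here.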

Additional observations from a re-analysis of the deposited data

How the results depend on the processing

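Of the 8 genes tested, 0 were called under any of the 18 alternatives, and the direction held except that ALB turned to -0.053 without EFTUD2 replicate 3 and AFP to 0.0055 without control replicate 1. With each library left out, the log2 fold change lay between -0.05 and 0.49 for ALB, -0.82 and 0.01 for AFP, -0.59 and -0.10 for TTR, 0.04 and 0.42 for RBP4, 0.16 and 0.55 for GPC3, 0.14 and 0.72 for AHSG, 0.59 and 0.78 for SERPINA1, and 0.82 and 1.49 for SERPINA3. Over all alternatives the adjusted p from limma ranged from 0.18 to 0.68 for SERPINA1 and from 0.19 to 0.68 for SERPINA3. Over all genes, 916 were called higher and 330 lower with array weights, whose estimation gave a warning, and between 0 and 119 higher and 0 and 12 lower with each library left out, the highest without EFTUD2 replicate 3. Without both control replicate 1 and EFTUD2 replicate 3, an alternative chosen after the data were seen, 1 gene was called higher, and the log2 difference was -0.55 for AFP to ALB and -0.55 for TTR to RBP4. For EFTUD2 itself the adjusted p from limma was 0.031 without EFTUD2 replicate 3 and 0.0069 with array weights. With the replicate number as a block, 0 genes were called. Same-numbered libraries deviated from their group means with correlations of -0.30, 0.35 and -0.09. Deviations from a mean of 3 libraries constrain each other, so these values cannot show whether the numbers pair the libraries. The ratio of GC to ALB was not run because GC was listed at 0 in 2 libraries. As FPKM carry no read numbers, depth sets no stated limit here.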
